A study of Mus musculus with 4 samples.

Results

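The 38 genes described here encode the SR proteins and the hnRNP proteins, the principal families of RNA-binding splicing regulators. They were the 11 genes with an Srsf number, the 20 genes whose symbol begins with Hnrnp, the 3 polypyrimidine tract binding protein genes Ptbp1, Ptbp2 and Ptbp3, Tra2a, Tra2b, and the related genes Rbmx and Rbmxl2. They were taken by symbol from a table of 50763 genes, leaving out 2 entries marked as pseudogenes. Polyadenylated RNA was sequenced from mouse testis cells labelled as pachytene spermatocytes, cells at the stage of male meiosis in which paired chromosomes recombine. There were 2 Hsf5 knockdown libraries and 2 WT libraries. Hsf5 encodes a testis heat shock transcription factor. The sources used here do not state how the knockdown was made, how the cells were isolated, the age and strain of the mice or whether a library came from 1 animal, and p-values measure the spread between libraries that the labels call biological replicates.

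SR proteins carry RNA recognition motifs and a tail rich in arginine and serine, bind exonic enhancers and mostly promote the use of the exon they bind. hnRNP proteins coat nascent transcripts and often act against them by silencing exons. The balance between both families sets which exons a cell includes, and the testis is among the tissues richest in alternative exons. Several of these regulators exist as pairs of a widely expressed and a germ cell gene, such as the X-linked Rbmx and its intronless autosomal copy Rbmxl2, or Ptbp1 and Ptbp2. The X chromosome is silenced in pachytene spermatocytes.

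The targeted gene was lower: Hsf5 stood at 287 and 238 CPM (counts brought to a common library size by TMM) in the Hsf5 knockdown libraries, against 586 and 449 CPM in the WT libraries. Its log2 fold change was -0.98 (SE 0.31, adjusted p = 0.0217 by the edgeR quasi-likelihood test). The libraries held 42479164 and 33947608 counts for the Hsf5 knockdown and 39331933 and 33287428 counts for WT. The libraries also differed in the cell types their markers name. The 14 Sertoli cell markers, all called higher, summed to 4447 and 5026 CPM in the Hsf5 knockdown libraries, against 196 and 482 CPM in the WT libraries. Of 16 spermatogonial markers 13 were higher, with sums of 894 and 857 CPM against 190 and 184 CPM in WT. Of 13 Leydig and peritubular markers 12 were higher (1554 and 2958 CPM, against 124 and 812 CPM in WT), as were 11 of 14 blood and endothelial markers (193 and 100.4 CPM, against 20.9 and 28.9 CPM). Of 15 pachytene markers 12 were lower, summing to 3158 and 2321 CPM in the Hsf5 knockdown libraries and to 15389 and 15064 CPM in WT. All 18 spermatid markers were lower, with 5 and 6 of them at 0 in the Hsf5 knockdown libraries (sums of 47.3 and 31.8 CPM, against 4805 and 2537 CPM in WT). No marker of the Sertoli, spermatogonial or pachytene lists was at 0 in any library. Mitochondrial genes held 3.47% and 2.42% of the counts in the Hsf5 knockdown libraries and 0.648% and 0.724% in WT. In these bulk samples fewer cells of a type and less RNA per cell cannot be told apart. The part of this shift in the fall of Hsf5 and in the values that follow was not tested. Since pachytene and spermatid markers fell too, the level of Hsf5 does not by itself check the knockdown label.

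The factor knocked down belongs to the family that binds heat shock elements, inverted repeats of GAA, so the promoters of the 38 genes were read for these letters. RefSeq windows from 250 bases before to 50 bases after an annotated start (GRCm38.p6) were at hand for 35 of the genes. A pair of repeats, GAANNTTC or TTCNNGAA, each its own reverse complement, was found in 5 of the 35 genes (14.3%), Hnrnpa2b1, Hnrnpf, Hnrnpl, Srsf9 and Tra2b, compared with 16.97% of all 27025 genes with a window. A run of 3 repeats, in which GAANNTTC and TTCNNGAA overlap by sharing their middle repeat, was searched for on both strands after the pairs had been seen. It was present in 2 of the 35 genes, Hnrnpa2b1 and Tra2b, and in 0.662% of all genes with a window. The windows with 3 repeats are shown with those of Srsf9, the SR protein gene with the largest rise, and Hnrnpf, the gene nearest to passing as lower. Each is given 5′ to 3′ on the gene's strand, and capitals mark the repeats.
Hnrnpa2b1, chr6:51469796-51470095, minus strand: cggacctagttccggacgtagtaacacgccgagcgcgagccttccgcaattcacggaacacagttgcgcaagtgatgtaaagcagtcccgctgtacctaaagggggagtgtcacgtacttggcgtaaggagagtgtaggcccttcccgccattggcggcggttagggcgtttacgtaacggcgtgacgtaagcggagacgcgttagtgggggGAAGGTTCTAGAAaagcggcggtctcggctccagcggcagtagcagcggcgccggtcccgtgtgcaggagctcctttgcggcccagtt
Tra2b, chr16:22265956-22266255, minus strand: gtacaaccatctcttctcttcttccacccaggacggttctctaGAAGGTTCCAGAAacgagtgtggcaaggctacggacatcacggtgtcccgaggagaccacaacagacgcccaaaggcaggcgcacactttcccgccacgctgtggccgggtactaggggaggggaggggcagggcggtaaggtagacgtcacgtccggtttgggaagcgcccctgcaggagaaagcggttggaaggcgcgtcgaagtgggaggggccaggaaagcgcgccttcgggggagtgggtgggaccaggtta
Srsf9, chr5:115326927-115327226, plus strand: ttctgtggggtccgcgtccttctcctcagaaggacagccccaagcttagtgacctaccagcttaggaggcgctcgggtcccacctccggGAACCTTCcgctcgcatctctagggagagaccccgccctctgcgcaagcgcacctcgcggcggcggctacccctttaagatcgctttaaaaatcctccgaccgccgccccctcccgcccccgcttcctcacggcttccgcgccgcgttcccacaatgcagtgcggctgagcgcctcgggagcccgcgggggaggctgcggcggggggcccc
Hnrnpf, chr6:117917044-117917343, plus strand: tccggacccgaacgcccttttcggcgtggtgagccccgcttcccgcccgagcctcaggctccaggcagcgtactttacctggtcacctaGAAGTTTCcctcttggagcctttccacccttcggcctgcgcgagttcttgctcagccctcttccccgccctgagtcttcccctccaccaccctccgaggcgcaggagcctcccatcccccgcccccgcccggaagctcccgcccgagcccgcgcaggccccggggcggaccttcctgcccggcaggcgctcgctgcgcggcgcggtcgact
The run of 3 repeats began 38 bases before the annotated start of Hnrnpa2b1 and 207 bases before that of Tra2b; a second annotated start of Hnrnpa2b1 puts the same run 12 bases after it. The pair began 161 bases before the start in both Srsf9 and Hnrnpf. Neither gene with 3 repeats passed the test between the groups, and their values are given below with their families.

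The comparison of Hsf5 knockdown with WT asks how these splicing regulators change when the factor is reduced. All 38 genes passed the filter on low counts. Of them 12 rose in the Hsf5 knockdown libraries, none fell and 26 did not pass (edgeR quasi-likelihood test, adjusted p under 0.05 over 23594 genes). Among all genes tested 27.4% were higher and 33.5% lower, so the share of higher genes, 31.6%, was near the background, while no gene was called lower. Among the 13558 genes within the members' range of mean CPM those shares were 32.9% and 31.7%. The count of 0 stood beside 1 gene lower at an unadjusted p under 0.05. A DESeq2 Wald test gave 11 higher and 0 lower, where 16.7% of all 36809 genes with a count were higher and 22.9% lower. The median log2 fold change was 0.41, against -0.12 over all genes tested and 0.35 over the 16002 protein coding genes tested. The values did not overlap in 30 genes: both Hsf5 knockdown libraries lay above both WT libraries in 23 genes and below both in 7, where over all genes tested those shares were 39% and 43.7%.

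**Figure D1:**
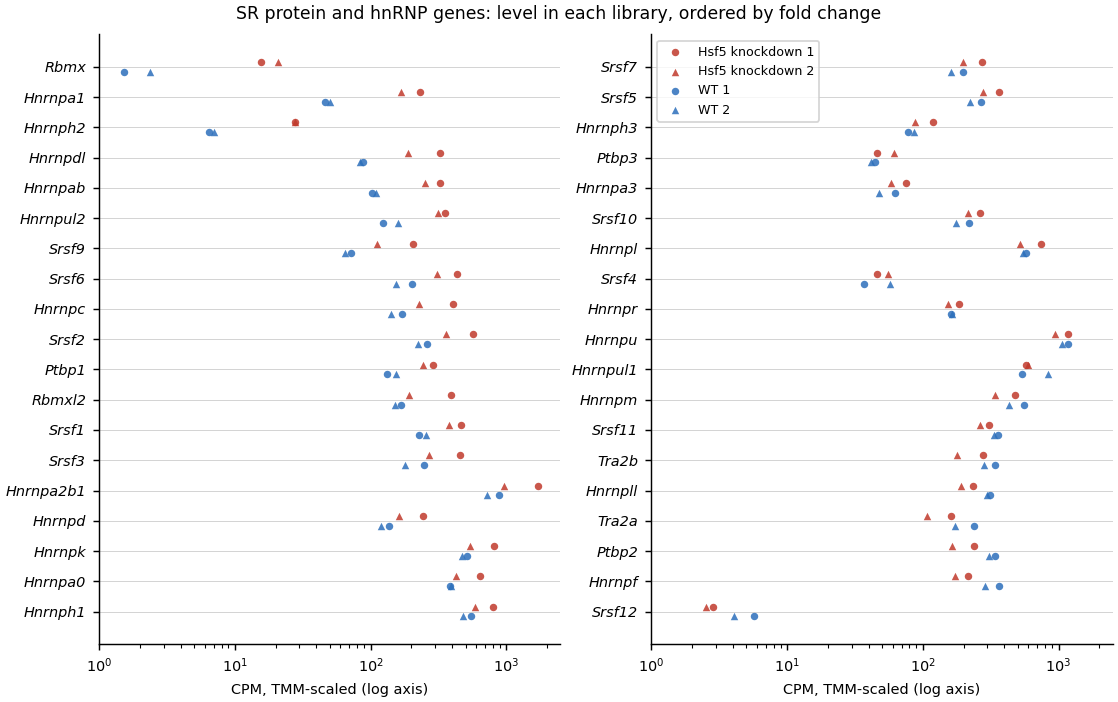
Level of each of the 38 genes in CPM on a log axis, with the 2 Hsf5 knockdown libraries in red and the 2 WT libraries in blue, circles for replicate 1 and triangles for replicate 2; genes are ordered by fold change. The red points lie right of the blue ones for the genes at the top of the left panel and left of them at the foot of the right panel, and the red circle lies right of the red triangle in 33 of the 38 genes.

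Directions of the smaller changes rested on how the libraries were scaled. With library totals as the only scaling 23 of the 38 genes were higher and 0 lower, where 34.4% of all genes were higher and 28.3% lower. With only protein coding genes in the fit, an alternative chosen after seeing the data, 7 were higher and 4 (Hnrnpf, Hnrnpll, Ptbp2 and Tra2a) lower, where 29.9% of the genes in the fit were higher and 30.5% lower. Scaled on 24 synaptonemal complex and cohesin genes, 2 were higher and 8 lower, where 11.1% of all genes were higher and 39.1% lower. The 8 were Hnrnpf, Hnrnpll, Hnrnpm, Hnrnpu, Ptbp2, Srsf11, Tra2a and Tra2b. These 24 genes were not level between the groups with TMM: 12 were called higher and 2 lower, with a median log2 fold change of 0.88. Scaling on them therefore moved fold changes down. The median of all genes was 0.31 with library totals, -0.12 with TMM, 0.05 in the fit of protein coding genes and -0.91 with the synaptonemal complex and cohesin genes. The median of the 38 genes lay 0.52, 0.53, 0.06 and 0.50 above these medians. The smaller difference goes with the genes compared rather than with the scaling. Protein coding genes alone had medians of 0.78 with library totals, 0.35 with TMM and -0.44 with the synaptonemal complex and cohesin genes. Under the same scalings the 38 genes had medians of 0.84, 0.41 and -0.41. Rbmx and Hnrnpa1 were called higher under all 12 alternatives tried.

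**Figure D2:**
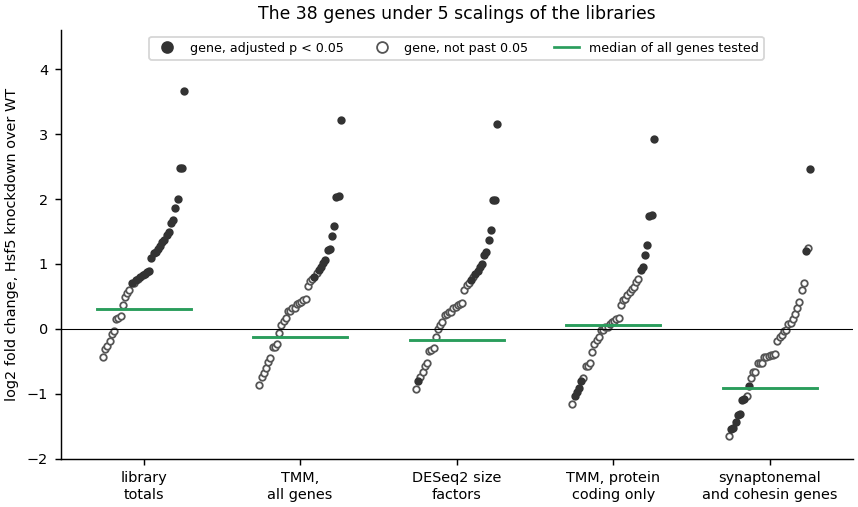
Log2 fold change of the 38 genes, Hsf5 knockdown over WT, under 5 scalings of the libraries; each point is a gene, filled where its adjusted p was under 0.05, and the green line is the median of all genes tested in that fit. The median of the points lies 0.50 to 0.53 above the line in the 4 fits of all genes. It lies 0.06 above the line in the fit of protein coding genes, where the line is the median of protein coding genes alone. The filled points number 23 higher and 0 lower with library totals and 2 higher and 8 lower with the synaptonemal complex and cohesin genes.

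Rbmx, whose product binds RNA and acts in splicing in most tissues, had the largest rise. It stood at 15.6 and 20.8 CPM in the Hsf5 knockdown libraries, against 1.52 and 2.40 CPM in the WT libraries, from 737 and 859 counts against 51 and 69 counts. The Hsf5 knockdown values were all several times the WT values, with a log2 fold change of 3.22 (SE 0.49; edgeR, adjusted p = 0.000539). Its range over the alternatives was 2.46 to 3.66. Rbmx is 1 of 2 of these genes on the X chromosome, and the 817 X-linked genes tested had a median log2 fold change of 2.89, with 67.9% of them higher. Rbmxl2, the autosomal copy that mouse spermatocytes need to complete meiosis, stood at 389 and 192 CPM in the Hsf5 knockdown libraries, against 168 and 151 CPM in the WT libraries. Its log2 fold change of 0.86 (SE 0.37) did not pass (edgeR, adjusted p = 0.0669). Without Hsf5 knockdown replicate 2 Rbmxl2 did pass (1.29; edgeR, adjusted p = 0.00193), and under the synaptonemal complex and cohesin scaling its sign turned (-0.04). The ratio of Rbmxl2 to Rbmx counts, which does not depend on scaling, was 24.9 and 9.20 in the Hsf5 knockdown libraries and 110.5 and 62.9 in the WT libraries.

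Hnrnph2, the other X-linked gene, encodes a protein that binds runs of G. Its level was 27.6 and 27.8 CPM in the Hsf5 knockdown libraries, against 6.50 and 7.02 CPM in the WT libraries. The replicates of each group lay close together and the groups did not overlap (log2 fold change 2.03, SE 0.38; edgeR, adjusted p = 0.00154). The call was lost under the synaptonemal complex and cohesin scaling (1.25; edgeR, adjusted p = 0.0901). Its autosomal relative Hnrnph1 had 791 and 584 CPM in the Hsf5 knockdown libraries, against 548 and 479 CPM in WT, and did not pass (log2 fold change 0.42, SE 0.32; edgeR, adjusted p = 0.28). The ratio of Hnrnph2 to Hnrnph1 counts was 0.0349 and 0.0476 in the Hsf5 knockdown libraries and 0.0119 and 0.0147 in WT. Hnrnpf, another gene of this subfamily, had 217 and 174 CPM in the Hsf5 knockdown libraries, against 367 and 286 CPM in WT. Both of its Hsf5 knockdown values lay below both WT values, and the log2 fold change of -0.74 (SE 0.30) did not pass (edgeR, adjusted p = 0.0589). It passed as lower with DESeq2 size factors (-0.80; edgeR, adjusted p = 0.0371), with genes under a mean of 1 CPM left out (-0.77, adjusted p = 0.0463) and without Hsf5 knockdown replicate 1 (-0.83, adjusted p = 0.0401). Of 75-base windows in Hnrnpf transcripts, 55.95% also occurred in transcripts of other genes, so its counts are less certain than those of most members.

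Hnrnph2 and 5 others of the 20 hnRNP genes rose, a share of 30%, near the 27.4% of all genes tested and the 32.9% of genes in the members' range of CPM. Hnrnpa1, a general antagonist of SR proteins at splice sites, had the second largest rise of the 38 genes. It stood at 230 and 168 CPM in the Hsf5 knockdown libraries, against 46.1 and 50.3 CPM in the WT libraries (log2 fold change 2.04, SE 0.31; edgeR, adjusted p = 0.000506). Both Hsf5 knockdown values were more than 3 times the higher WT value. Of its 75-base windows 27.0% occur in other genes, most often in the processed copy Gm10052, which makes its level uncertain. Hnrnpdl, which encodes a protein close to the AU-rich element binding hnRNP D, had 327 and 188 CPM in the Hsf5 knockdown libraries, against 88.5 and 83.4 CPM in WT (log2 fold change 1.58, SE 0.34; edgeR, adjusted p = 0.00318). Hnrnpab, of the same subfamily, had 323 and 253 CPM against 103 and 110 CPM in WT (log2 fold change 1.43, SE 0.30; edgeR, adjusted p = 0.00256). In both genes the groups lay well apart, although the Hsf5 knockdown replicates differed. Hnrnpd itself had 245 and 162 CPM in the Hsf5 knockdown libraries, against 137 and 120 CPM in WT, and did not pass (log2 fold change 0.66, SE 0.31; edgeR, adjusted p = 0.0916). It passed without Hsf5 knockdown replicate 2 (0.94; edgeR, adjusted p = 0.0154).

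Hnrnpul2, a relative of the scaffold attachment protein hnRNP U, stood at 356 and 314 CPM in the Hsf5 knockdown libraries and at 124 and 161 CPM in WT (log2 fold change 1.24, SE 0.30; edgeR, adjusted p = 0.006). The call was lost without WT replicate 1 (1.04; edgeR, adjusted p = 0.122). Neither Hnrnpu nor Hnrnpul1 passed. Hnrnpu, which had the highest mean CPM of the 38 genes, stood at 1178 and 946 CPM in the Hsf5 knockdown libraries, against 1167 and 1054 CPM in WT (log2 fold change -0.06, SE 0.33; edgeR, adjusted p = 0.877). Hnrnpul1 had 575 and 594 CPM against 540 and 837 CPM in WT, and the WT values spanned those of the Hsf5 knockdown (log2 fold change -0.24, SE 0.34; edgeR, adjusted p = 0.566). Hnrnpc, which binds uridine tracts as a tetramer, had 405 and 229 CPM in the Hsf5 knockdown libraries, against 170 and 142 CPM in WT (log2 fold change 1.02, SE 0.35; edgeR, adjusted p = 0.0282). This call was lost without WT replicate 1 (edgeR, adjusted p = 0.0893), without WT replicate 2 (0.172) or without Hsf5 knockdown replicate 1 (0.0944).

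Hnrnpa2b1, whose promoter holds the run of 3 repeats, encodes an RNA-binding protein of splicing and RNA transport. It had 1714 and 967 CPM in the Hsf5 knockdown libraries, against 885 and 716 CPM in WT. The groups did not overlap, but the Hsf5 knockdown replicates lay farther apart than the groups' nearest values, and the difference did not pass (log2 fold change 0.74, SE 0.38; edgeR, adjusted p = 0.116). It passed without Hsf5 knockdown replicate 2 (1.11; edgeR, adjusted p = 0.00232). The remaining hnRNP genes, Hnrnpk, Hnrnpa0, Hnrnph3, Hnrnpa3, Hnrnpl, Hnrnpr, Hnrnpm and Hnrnpll, had log2 fold changes between 0.46 (Hnrnpk) and -0.51 (Hnrnpll) and did not pass. Without Hsf5 knockdown replicate 2 Hnrnpk (0.73; edgeR, adjusted p = 0.0258) and Hnrnpa0 (0.71, adjusted p = 0.0337) were called higher. Hnrnpll, known for directing the splicing of CD45 in lymphocytes, had 235 and 193 CPM in the Hsf5 knockdown libraries, against 311 and 297 CPM in WT (SE 0.29; edgeR, adjusted p = 0.153).

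**Figure D3:**
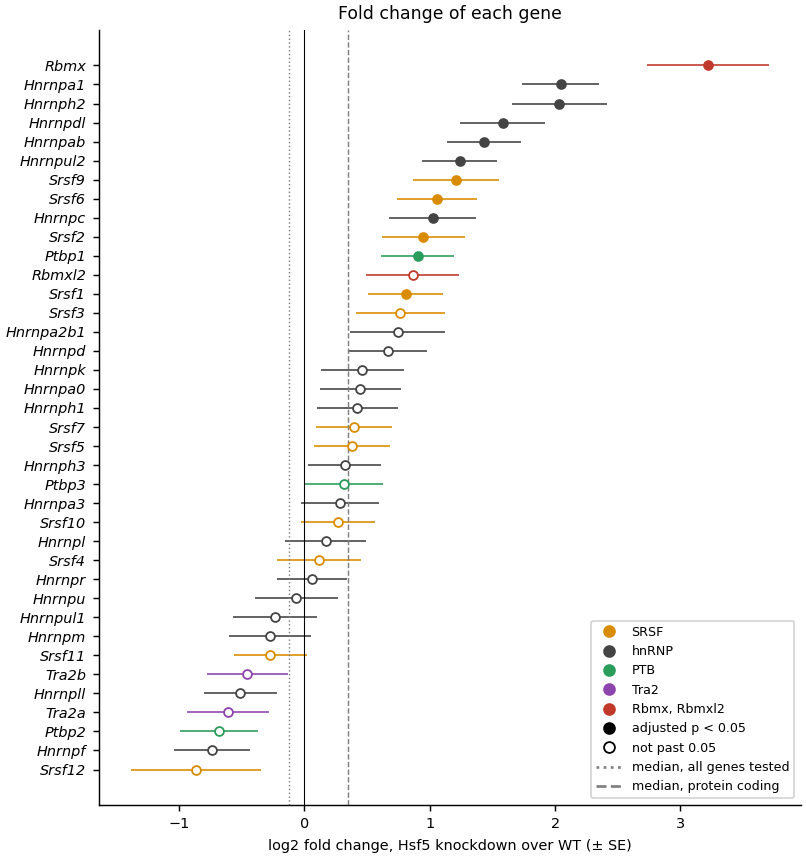
Log2 fold change of each gene, Hsf5 knockdown over WT, with bars of 1 SE; colours give the family, filled points an adjusted p under 0.05. Of the 12 filled points Rbmx lies farthest right at 3.22, the unfilled points at the foot end with Srsf12 at -0.87, and the dotted and dashed lines mark the medians of all genes tested (-0.12) and of protein coding genes (0.35).

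Among the 11 SR protein genes 4 rose, none fell and 7 did not pass. The share higher, 36.4%, was near that of all genes tested (27.4%) and of genes in the members' range of CPM (32.9%). Srsf9, which can act as a repressor as well as an activator of exons, stood at 204 and 111 CPM in the Hsf5 knockdown libraries, against 71.5 and 64.7 CPM in WT (log2 fold change 1.21, SE 0.35; edgeR, adjusted p = 0.0133). Srsf6 had 432 and 310 CPM against 202 and 155 CPM in WT (1.06, SE 0.32, adjusted p = 0.017 by edgeR). Srsf2, which bound to enhancers recruits the splicing machinery, had 571 and 361 CPM against 260 and 222 CPM in WT (0.95, SE 0.33, adjusted p = 0.0323 by edgeR). Of its 75-base windows 18.5% also occur in other genes, most often in Mettl23, which makes its level less certain. Srsf1, the founding member of the family, had 466 and 381 CPM against 226 and 258 CPM in WT (0.81, SE 0.30, adjusted p = 0.0403 by edgeR). In these 4 genes both Hsf5 knockdown libraries were above both WT libraries, replicate 1 being the higher of the Hsf5 knockdown libraries.

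The calls of these 4 genes were lost in some of the fits that leave out a library. Such fits hold 1 library in a group, and they called fewer of all genes too. Leaving out WT replicate 1 raised the edgeR adjusted p to 0.317 for Srsf1, 0.126 for Srsf2 and 0.0652 for Srsf6, and leaving out WT replicate 2 raised it to 0.181, 0.218 and 0.187 in the same order. The call of Srsf9 was lost without WT replicate 2 (edgeR, adjusted p = 0.0668) or without Hsf5 knockdown replicate 1 (0.066), and Srsf2 was not called without that library either (0.0696). The sign of Srsf1 turned under the synaptonemal complex and cohesin scaling (-0.02). Srsf3, the smallest SR protein, had 459 and 268 CPM in the Hsf5 knockdown libraries, against 247 and 180 CPM in WT, and did not pass (log2 fold change 0.76, SE 0.35; edgeR, adjusted p = 0.0862). Srsf3 passed without Hsf5 knockdown replicate 2 (1.11; edgeR, adjusted p = 0.00587). Srsf7, Srsf5, Srsf10, Srsf4 and Srsf11 had log2 fold changes between 0.39 (Srsf7) and -0.27 (Srsf11) and did not pass. Srsf12, a close relative of Srsf10, had the lowest mean CPM of the 38 genes, with 2.86 and 2.54 CPM in the Hsf5 knockdown libraries and 5.78 and 4.07 CPM in WT (log2 fold change -0.87, SE 0.52; edgeR, adjusted p = 0.176). The ratio of Srsf12 to Srsf10 counts was 0.0109 and 0.0117 in the Hsf5 knockdown libraries and 0.0263 and 0.0229 in WT.

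The proteins of the PTB family repress exons through pyrimidine-rich tracts, and of their 3 genes 1 rose. Ptbp1, the form of most tissues, stood at 290 and 242 CPM in the Hsf5 knockdown libraries, against 132 and 153 CPM in WT, and rose (log2 fold change 0.90, SE 0.29; edgeR, adjusted p = 0.0228). This call was lost without WT replicate 1 (edgeR, adjusted p = 0.249) and without WT replicate 2 (0.117). Ptbp2, the form of neurons and germ cells that mice need for spermatogenesis, stood at 240 and 164 CPM in the Hsf5 knockdown libraries, against 339 and 310 CPM in WT. Its values lay below both WT values without passing (log2 fold change -0.68, SE 0.31; edgeR, adjusted p = 0.0832), and passed as lower without Hsf5 knockdown replicate 1 (-0.91; edgeR, adjusted p = 0.0238). The ratio of Ptbp2 to Ptbp1 counts was 0.828 and 0.678 in the Hsf5 knockdown libraries and 2.58 and 2.03 in WT. More reads fell on Ptbp1 than on Ptbp2 in both Hsf5 knockdown libraries and fewer in both WT libraries. Ptbp3 had 46.3 and 61.6 CPM in the Hsf5 knockdown libraries, against 44.7 and 41.8 CPM in WT (log2 fold change 0.32, SE 0.31; edgeR, adjusted p = 0.398).

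Tra2a and Tra2b encode SR-like activators that bind GAA-rich exonic enhancers. Tra2a stood at 162 and 107 CPM in the Hsf5 knockdown libraries, against 239 and 173 CPM in WT (log2 fold change -0.61, SE 0.33; edgeR, adjusted p = 0.134). Tra2b, the other gene with 3 repeats in its promoter, had 279 and 178 CPM in the Hsf5 knockdown libraries, against 342 and 285 CPM in WT (-0.46, SE 0.33, adjusted p = 0.25 by edgeR). For both genes the Hsf5 knockdown values lay below the WT values without passing. Both were called lower under the synaptonemal complex and cohesin scaling, where 39.1% of all genes were lower. Without Hsf5 knockdown replicate 1 the log2 fold change of Tra2a was -0.86. The ratio of Tra2a to Tra2b counts was 0.582 and 0.604 in the Hsf5 knockdown libraries and 0.698 and 0.606 in WT, so it separated the groups by less than the spread within WT.

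**Figure D4:**
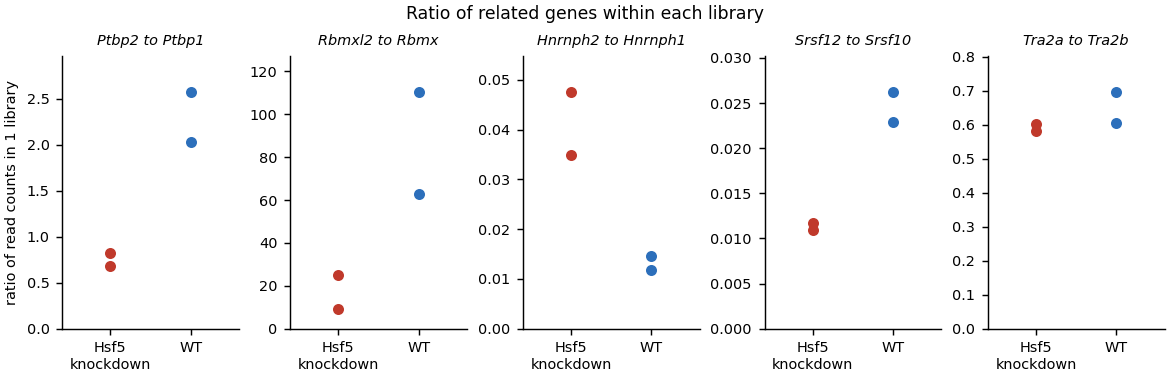
Ratio of the read counts of 2 related genes within each library, from 0, for 5 pairs; red points are the 2 Hsf5 knockdown libraries and blue points the 2 WT libraries. The groups lie apart for Ptbp2 to Ptbp1, Rbmxl2 to Rbmx, Hnrnph2 to Hnrnph1 and Srsf12 to Srsf10, and nearly touch for Tra2a to Tra2b.

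These ratios are given as a description; the exact two-sided permutation test, with 2 libraries against 2, cannot go below p = 0.333. The mean log2 ratio in the Hsf5 knockdown minus that in WT was -2.46 for Rbmxl2 to Rbmx, 1.63 for Hnrnph2 to Hnrnph1, -1.61 for Ptbp2 to Ptbp1, -1.12 for Srsf12 to Srsf10 and -0.13 for Tra2a to Tra2b.

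Levels between genes were compared per kilobase of exon sequence (exon union of GENCODE M21, GRCm38). In the WT libraries the order began with Hnrnpa0, at a mean of 145 CPM per kb, followed by Hnrnpa2b1 at 121.5, Rbmxl2 at 108 and Hnrnpf at 107 CPM per kb. In the Hsf5 knockdown libraries it began with Hnrnpa2b1 at 204 CPM per kb, Hnrnpa0 at 198, Rbmxl2 at 197 and Srsf2 at 157.5 CPM per kb, and Hnrnpf stood at 64.1 CPM per kb, the level ranked 17. The Hsf5 knockdown levels of the leading genes differed by less than the spread between replicates, since Hnrnpa2b1 had 260 and 147, Hnrnpa0 237 and 158, and Rbmxl2 264 and 130 CPM per kb. Near the foot of the order Rbmx had a mean of 4.21 CPM per kb in the Hsf5 knockdown and 0.453 CPM per kb in WT.

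The Hsf5 knockdown replicates differed from each other along much of the group. Replicate 1 was above replicate 2 in 33 of the 38 genes, and the log2 ratio of replicate 2 over replicate 1 had a median of -0.44, against 0.00 over all genes tested. In WT replicate 1 was above replicate 2 in 26 genes, with a median of -0.14. Summed over the 38 genes the level was 14482 and 10342 CPM in the Hsf5 knockdown libraries, against 10191 and 9442 CPM in WT. The sum in Hsf5 knockdown replicate 2 was thus close to the WT sums. Leptotene and zygotene markers also summed higher in Hsf5 knockdown replicate 1 (2540 CPM) than in replicate 2 (1348 CPM), against 964 and 883 CPM in WT. Of 13 such markers tested between the groups 9 were higher and 2 lower, and their part in the result was not tested. Leaving out a library gave a median log2 fold change of the 38 genes of 0.51 without WT replicate 1 and 0.43 without WT replicate 2. It was 0.25 without Hsf5 knockdown replicate 1 and 0.62 without Hsf5 knockdown replicate 2. Over all genes tested in these fits the median was 0.05, -0.09, -0.23 and -0.27 in the same order. Each of these fits left 1 library in a group, and fewer of all genes were called in each of them. Of the 12 genes that rose, only Srsf1 changed sign under any alternative. For the 5 largest rises the lowest log2 fold changes over the alternatives were 2.46 (Rbmx), 1.20 (Hnrnpa1), 1.25 (Hnrnph2), 0.70 (Hnrnpdl) and 0.61 (Hnrnpab). Of these 5, Hnrnph2, Hnrnpdl and Hnrnpab were not called under the synaptonemal complex and cohesin scaling (edgeR, adjusted p = 0.0901, 0.105 and 0.172 in that order).

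The proteins that work with these regulators were read from lists of pathway genes, counted in full. Of 69 core spliceosome genes 10 were higher, 5 lower and 54 did not pass (median log2 fold change 0.34). For this list and those that follow, the shares over all genes tested were 27.4% higher and 33.5% lower, 60.9% in either direction. Zrsr2, an X-linked 3′ splice site factor of the minor spliceosome, had 31.6 and 23.6 CPM in the Hsf5 knockdown libraries, against 1.28 and 2.19 CPM in WT (log2 fold change 3.99, SE 0.48). Prpf19, a ubiquitin ligase of the spliceosome, rose by 1.55 (SE 0.32) and Snrpb, a core Sm protein gene, by 1.45 (SE 0.35) on the log2 scale. Txnl4b, a relative of a tri-snRNP protein gene, fell to 9.64 and 6.71 CPM in the Hsf5 knockdown libraries, against 98.7 and 74.8 CPM in WT (log2 fold change -3.41, SE 0.37). Snrnp35, of the minor spliceosome, and Ddx46, a helicase, fell too, with log2 fold changes of -2.11 (SE 0.33) for Snrnp35 and -1.39 (SE 0.29) for Ddx46.

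Of 31 genes for SR protein kinases and SR-related proteins 9 were higher, 3 lower and 19 did not pass (29% higher and 9.68% lower, median 0.38). Srpk1, a kinase that phosphorylates SR proteins and is abundant in testis, fell to 248 and 216 CPM in the Hsf5 knockdown libraries, against 576 and 573 CPM in WT (log2 fold change -1.31, SE 0.30; edgeR, adjusted p = 0.00443). The replicates of Srpk1 lay close together in both groups. Scaf4 (-0.98, SE 0.30) and Srek1 (-0.91, SE 0.28) also fell, and Scaf11 (3.06, SE 0.37), Scaf8 (1.27, SE 0.29) and Rnps1 (1.22, SE 0.30), the last a splicing activator found with the exon junction complex, rose. Of 12 tested hnRNP-type genes with other symbols 4 were higher, 1 lower and 7 did not pass (33.3% higher and 8.33% lower, median 0.59). Igf2bp1 (3.30, SE 0.38), Raly (2.05, SE 0.33) and Syncrip (1.23, SE 0.28) rose, and Pcbp3, a poly(C) binding protein gene, fell to 141 and 103 CPM in the Hsf5 knockdown libraries, against 556 and 531 CPM in WT.

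Of 52 other splicing regulators and factors of RNA surveillance 20 were higher, 4 lower and 28 did not pass (38.5% higher and 7.69% lower, median 0.61). Rbm38 (log2 fold change 3.12, SE 0.34), Elavl3 (3.57, SE 0.40) and Mbnl3 (4.36, SE 0.54) rose, and Celf3 (-3.95, SE 0.46), Celf5 (-2.73, SE 0.39) and Upf3a (-2.82, SE 0.35) fell. All 5 X-linked genes of this list, Mbnl3, Nono, Rbm10, Rbm41 and Upf3b, were higher, as were 67.9% of the 817 X-linked genes tested. Under the synaptonemal complex and cohesin scaling Rbm10 (log2 fold change 1.53, adjusted p = 0.0776 by edgeR) and Upf3b (0.77, adjusted p = 0.276 by edgeR) were not called. The 22 called genes named from these lists for the smallest p kept their direction under all 5 scalings, and 15 of them kept their call. Prpf19, Snrpb, Rnps1, Scaf8 and Syncrip were not called under the synaptonemal complex and cohesin scaling, with log2 fold changes of 0.37 (Rnps1) to 0.71 (Prpf19), and Scaf4 (-0.54) and Srek1 (-0.47) were not called with library totals. The list medians did not: under the synaptonemal complex and cohesin scaling they were -0.52 for the core spliceosome, -0.41 for the SR kinases and SR-related proteins, -0.23 for the hnRNP-type genes and -0.14 for the other regulators.

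**Figure D5:**
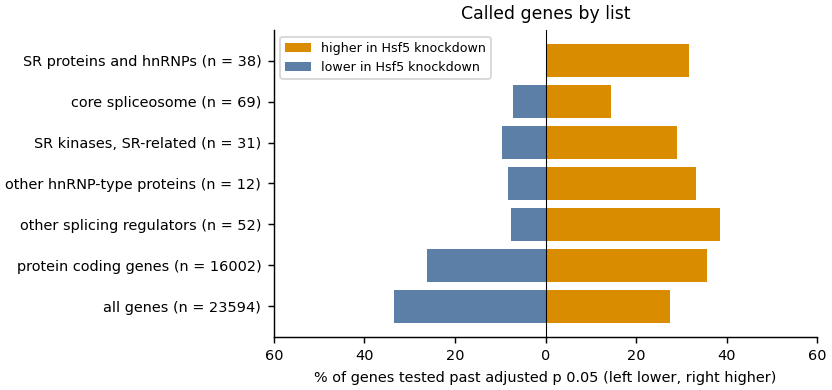
Share of the tested genes of each list called lower (bars to the left) or higher (bars to the right) in the Hsf5 knockdown at an adjusted p under 0.05, with the number tested beside each name. The SR protein and hnRNP genes have 31.6% higher and no bar to the left, against 27.4% higher and 33.5% lower for all genes and 35.7% and 26.3% for protein coding genes.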

How the data were processed

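Polyadenylated RNA was sequenced in 4 libraries, and the authors deposited raw counts per gene symbol, with 1 column for each library matched by name. Per the submitters' processing notes the tools were HISAT2 2.2.1, Trim Galore 0.6.10, DESeq2 1.46.0 and featureCounts 1.5.3, with build mm39. Annotation, strand setting and the treatment of multi-mapping reads are not stated in the sources used here. Genes with close copies, such as Hnrnpa1, Hnrnpa3, Hnrnpf and Srsf4, and with overlapping neighbours, such as Hnrnpab, are less certain. The same holds for Srsf2, which shares windows with Mettl23.

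The test was edgeR 4.0.16 under R 4.3.3: filterByExpr kept 23594 of 36809 genes with a count, TMM factors were 1.11 and 1.22 for the Hsf5 knockdown and 0.854 and 0.865 for WT, and the quasi-likelihood F test had Benjamini-Hochberg adjustment over all genes at 0.05. The biological coefficient of variation was 0.356. SEs are the log2 fold change over the square root of F. The fit was checked on simulated counts in which few genes changed, as many up as down, so the scaling was not checked by it. At depths of 33287428 to 42479164 counts the members had SEs of 0.28 to 0.52.

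Chromosomes and promoters came from RefSeq (GRCm38.p6) by symbol and exon lengths from GENCODE M21. Shared windows are 75-base stretches of GENCODE M21 transcripts, a length chosen here. Of 301 list entries 298 matched, 1 by synonym. The 24 scaling genes include somatic cohesins, 2 of them X-linked. The members and lists were chosen with earlier results of these data known. Values in every library are given for X-linked members and their autosomal relatives, the PTB and Tra2 genes, the 6 largest rises and the highest levels; other members were added after their values were seen. In other lists the 3 called genes with the smallest p in each direction are named. Alternatives were a block for the replicate number, each library left out, the Wald test of DESeq2 1.42.0, its size factors, library totals, scaling on synaptonemal complex and cohesin genes, a filter at a mean of 1 CPM or none, and a log2 fold change of at least 1. A fit of protein coding genes alone was added after seeing the data.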

Additional observations from a re-analysis of the deposited data

How the results depend on the processing

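Over the 4 leave-one-out fits the number of members higher ran from 6 to 18 and lower from 0 to 3, and all genes from 5023 to 5791 higher and 6368 to 7579 lower. Their median log2 fold change ran from 0.25 to 0.62. Against 12 higher and 0 lower, library totals gave 23 higher (median 0.84), the synaptonemal complex and cohesin scaling 2 higher and 8 lower (median -0.41, and 2613 of all genes higher against 6467), and protein coding genes alone 7 higher and 4 lower (4879 of 16002 genes lower, against 4203 of the same genes in the fit of 23594). DESeq2 size factors and a mean of at least 1 CPM each gave 1 lower, where 34.1% and 34% of the genes tested were lower. With the replicate number as a block 16 were higher and 3 lower, where 29.7% of all genes were higher and 35.4% lower. The block added Rbmxl2, Hnrnpd, Hnrnpa2b1 and Srsf3 as higher and Hnrnpf, Ptbp2 and Tra2a as lower. Deviations of same-numbered libraries correlated at 0.32 over genes, and 2 pairs do not show whether the numbers pair the animals. Requiring a log2 fold change of at least 1 left 9 higher, and no share of all genes at that fold is given here to set beside it. Over 12 alternatives for each gene, 349 of the fits kept sign and call, 30 lost a call, 44 gained one, 32 changed sign without a call, and Srsf1 turned to -0.0194 under the synaptonemal complex and cohesin scaling. The cause of these changes was not tested. Bounds of counting error do not limit these genes, whose lowest count was 51, whereas 2 libraries a group do.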

Other observations

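The RNA surveillance factors Upf3a and Upf3b, paralogs that act in nonsense-mediated decay, moved in opposite directions. Many SR protein and hnRNP genes are known to limit their own output through exons that trigger this decay. Upf3a, the autosomal gene, stood at 74.2 and 47.6 CPM in the Hsf5 knockdown libraries, against 489 and 373 CPM in WT (log2 fold change -2.82, SE 0.35). Upf3b, on the X chromosome, stood at 22.7 and 26.9 CPM, against 10.4 and 7.19 CPM in WT (log2 fold change 1.49, SE 0.40; edgeR, adjusted p = 0.00936), a call lost under the synaptonemal complex and cohesin scaling (0.77; edgeR, adjusted p = 0.276). Upf3b was chosen after its values were seen.

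Gene counts do not resolve which exons were used, so poison exons and isoforms of these regulators were not analysed here. Among the pathway genes named, Zrsr2 and Mbnl3 on X rose by 3.99 and 4.36 on the log2 scale, beside 3.22 for Rbmx. Rbmxl1, another copy of Rbmx on an autosome, had 60.8 and 43.3 CPM in the Hsf5 knockdown libraries, against 32.4 and 27.2 CPM in WT, and did not pass (log2 fold change 0.81, SE 0.33; edgeR, adjusted p = 0.0589).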
